A study of Mus musculus with 2 samples.

Results

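Tmem176a and Tmem176b are neighbouring genes on mouse chromosome 6, and both were followed here through every class of liver leukocyte in mice with diet-induced steatohepatitis. The pair was chosen from the 32285 genes of the count tables because an earlier look at these same libraries had found both genes higher in macrophages of the Trem2-/- marrow library, so that macrophage difference is described below and not tested. The Trem2-/- group was made of irradiated male C57Bl6/J recipients reconstituted with Trem2-/- bone marrow, and the Trem2+/+ group of irradiated recipients of marrow from Trem2+/+ littermates. After 6 weeks of recovery, all recipients of both groups ate a methionine- and choline-deficient diet for 4 weeks, a model that produces steatohepatitis. Viable CD45+ liver cells of 4 mice were pooled in equal parts for each group and made into 1 droplet library per group, in which a molecular identifier (UMI) lets each captured transcript count once. The Trem2 deletion is therefore in donor-derived cells, while host cells that outlived the irradiation could not be told apart from them, and the sources used here give no mouse age.

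TMEM176A and TMEM176B are related membrane proteins with several membrane-spanning segments, akin to the CD20-like MS4A family, and are found mainly on intracellular vesicles, where they have been described as cation channels. In mice they are known from dendritic cells, where they have been tied to the handling of antigen for MHC class II. TMEM176B has also been described in mouse as a restraint on the NLRP3 inflammasome, the complex that activates caspase-1 and interleukin-1 beta.

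The genes lie head to head. In the GENCODE M21 annotation of GRCm38 (mm10), Tmem176b (ENSMUSG00000029810) occupies chr6:48833818-48841496 on the minus strand and Tmem176a (ENSMUSG00000023367) chr6:48840919-48847071 on the plus strand, both protein-coding. Their gene bodies share 578 bases, chr6:48840919-48841496, at the 5′ ends that this library chemistry reads. The sources used here do not state whether the counting used strand, so reads from the shared stretch may not have been told apart. RefSeq lists 2 starts for Tmem176a and 3 for Tmem176b, and the closest opposing pair is 109 bases apart. The RefSeq windows (GRCm38.p6, 250 bases before to 50 after the start) of that closest pair are shown because they overlap by 208 bases. The overlap holds the bases after each start as well as those between the starts. Capitals mark GAGGAA, the core bound by the myeloid factor PU.1, read on either strand.
Tmem176a, start 48841483, chr6:48841233-48841532, plus strand: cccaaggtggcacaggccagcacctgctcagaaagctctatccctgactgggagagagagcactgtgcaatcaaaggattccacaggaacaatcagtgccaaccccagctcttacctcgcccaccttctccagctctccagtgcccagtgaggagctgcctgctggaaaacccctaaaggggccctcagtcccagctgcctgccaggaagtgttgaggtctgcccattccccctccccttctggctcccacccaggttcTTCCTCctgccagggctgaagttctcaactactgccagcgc
Tmem176b, start 48841374, chr6:48841325-48841624, minus strand: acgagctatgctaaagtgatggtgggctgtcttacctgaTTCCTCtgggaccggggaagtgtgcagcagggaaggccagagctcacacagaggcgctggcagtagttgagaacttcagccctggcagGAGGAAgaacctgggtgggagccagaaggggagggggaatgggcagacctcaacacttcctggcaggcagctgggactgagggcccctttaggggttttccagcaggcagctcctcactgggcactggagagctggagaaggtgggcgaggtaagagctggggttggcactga
The Tmem176a window held 1 match and the Tmem176b window 2. The further Tmem176a window, chr6:48841406-48841705, held 2 matches, and the remaining pair of Tmem176b windows, chr6:48840939-48841238 and chr6:48841088-48841387, had no match. GAGGAA occurs in 28.3% of all 32851 RefSeq windows of this length, and matches in overlapping windows are partly the same bases. The IRF motif (3.44% of all windows), the C/EBP core TTGCNNCAA (2.08%), TATAAA (13.6%) and CCAAT (37.4%), read on both strands, were not found in any of the 5 windows. None of these motifs overlapped another in the windows.

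The Trem2-/- library held 6362 barcodes and 25288032 UMIs, and the Trem2+/+ library 7012 barcodes and 27238586 UMIs, of which 5973 (Trem2-/-) and 6596 (Trem2+/+) cells were kept. The libraries shared 56 barcode sequences. Trem2 itself had 154 UMIs (6.19 CPM) in kept cells of the Trem2-/- library, against 5478 UMIs (204 CPM) in those of the Trem2+/+ library. Cell classes were rebuilt by clustering without Tmem176a, Tmem176b, Trem or Treml genes, and are called "-like" after their markers. With 1 library per group there is no replicate error and no test between groups, and every interval below is a 95% interval that covers counting error only.

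Leaving out classes of under 20 cells, mature dendritic-like cells had the highest level of both genes in both libraries, followed by cDC2-like cells, the conventional dendritic cells known for presentation to CD4 T cells. Among mature dendritic-like cells, Tmem176a stood at 819 CPM (752 to 890, 90 cells) in the Trem2-/- library against 787 CPM (718 to 861, 89 cells) in the Trem2+/+ library. Tmem176b stood there at 1115 CPM (1037 to 1198) in the Trem2-/- library against 1132 CPM (1049 to 1220) in the Trem2+/+ library. In cDC2-like cells Tmem176a stood at 449 CPM (411 to 490, 126 cells) in the Trem2-/- library, against 520 CPM (484 to 559, 191 cells) in the Trem2+/+ library. Tmem176b stood there at 817 CPM (765 to 871) for Trem2-/- marrow and 934 CPM (884 to 985) for Trem2+/+ marrow. The intervals of the top class did not overlap those of cDC2-like cells for either gene or library. The label of the top class rested on a list of 9 markers, all 9 detected in both libraries. Among them Fscn1, the actin bundler of migratory dendritic cells, stood at 3162 CPM in the Trem2-/- library and 2970 CPM in the Trem2+/+ library. In cDC2-like cells Fscn1 stood at 9.76 CPM (Trem2-/-) and 18.8 CPM (Trem2+/+).

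Type 1 conventional dendritic cells stood far below the mature dendritic-like and cDC2-like classes. In cDC1-like cells, which carried the chemokine receptor gene Xcr1 at 359 CPM (Trem2-/-) and 373 CPM (Trem2+/+), Tmem176a stood at 7.43 CPM (4.25 to 12.1, 187 cells) in the Trem2-/- library against 17.8 CPM (12.3 to 24.8, 219 cells) in the Trem2+/+ library. Tmem176b stood at 18.1 CPM (12.9 to 24.8) for Trem2-/- marrow and 29.8 CPM (22.6 to 38.6) for Trem2+/+ marrow. These cells were the deepest of the dendritic classes, with medians of 12056 UMIs (Trem2-/-) and 9408 UMIs (Trem2+/+). Plasmacytoid dendritic-like cells had Tmem176a at 60.2 CPM (32.9 to 101, 42 cells) in the Trem2-/- library against 24.4 CPM (8.96 to 53.2, 67 cells) in the Trem2+/+ library. Tmem176b stood there at 103 CPM (66.1 to 153) for Trem2-/- marrow and 44.8 CPM (22.4 to 80.1) for Trem2+/+ marrow. The intervals of cDC1-like and plasmacytoid dendritic-like cells overlapped for both genes in the Trem2+/+ library and for neither gene in the Trem2-/- library.

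The middle of the order held CD4 T-like, macrophage-like, Ly6C-high monocyte-like, Kupffer-like, NK-like and endothelial-like cells. Tmem176a ran from 112 to 293 CPM among these classes in the Trem2-/- library, and from 127 to 405 CPM in the Trem2+/+ library, CD4 T-like cells being highest and endothelial-like cells lowest in each. Tmem176b ran from 179 to 519 CPM in the Trem2-/- library, with macrophage-like cells highest, and from 206 to 628 CPM in the Trem2+/+ library, with CD4 T-like cells highest. Several neighbours in this part of the order did not differ beyond their intervals. In the Trem2-/- library, for example, Tmem176b stood at 422 CPM (379 to 468) in Kupffer-like cells and 405 CPM (381 to 429) in Ly6C-high monocyte-like cells. Ptprc, the gene for CD45, stood at 57.3 CPM (Trem2-/-) and 83.9 CPM (Trem2+/+) in endothelial-like cells, while over all kept cells it stood at 739 CPM (Trem2-/-) and 652 CPM (Trem2+/+).

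Regulatory T-like cells had Tmem176a at 56.7 CPM (34.7 to 87.6, 94 cells) in the Trem2-/- library against 31.9 CPM (3.87 to 115, 24 cells) in the Trem2+/+ library. Cycling-like cells stood at 73.7 CPM (Trem2-/-) and 58.1 CPM (Trem2+/+). B cell-like, CD8 T-like and neutrophil-like cells were among the lowest classes. In B cell-like cells Tmem176a stood at 7.95 CPM (4.11 to 13.9) in the Trem2-/- library against 12.3 CPM (7.17 to 19.7) in the Trem2+/+ library, and Tmem176b at 15.2 CPM (9.66 to 22.9) for Trem2-/- marrow and 24.6 CPM (17.1 to 34.4) for Trem2+/+ marrow. A Tmem176a UMI was present in 1.53% of B cell-like cells of the Trem2-/- library and 1.54% of those of the Trem2+/+ library, and a Tmem176b UMI in 2.79% (Trem2-/-) and 2.69% (Trem2+/+). Their median depths were 1984 UMIs (Trem2-/-) and 1733 UMIs (Trem2+/+), shallower than most classes above them. Free RNA was not measured, so how much of these shares it gave was not tested. CD8 T-like cells, at medians of 3479 UMIs (Trem2-/-) and 3335 UMIs (Trem2+/+), had Tmem176a in 2.08% (Trem2-/-) and 3.06% (Trem2+/+) of cells and Tmem176b in 4.04% (Trem2-/-) and 3.87% (Trem2+/+). Neutrophil-like cells had 18 (Trem2-/-) and 6 (Trem2+/+) Tmem176b UMIs, too few to read a level from.

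**Figure D1:**
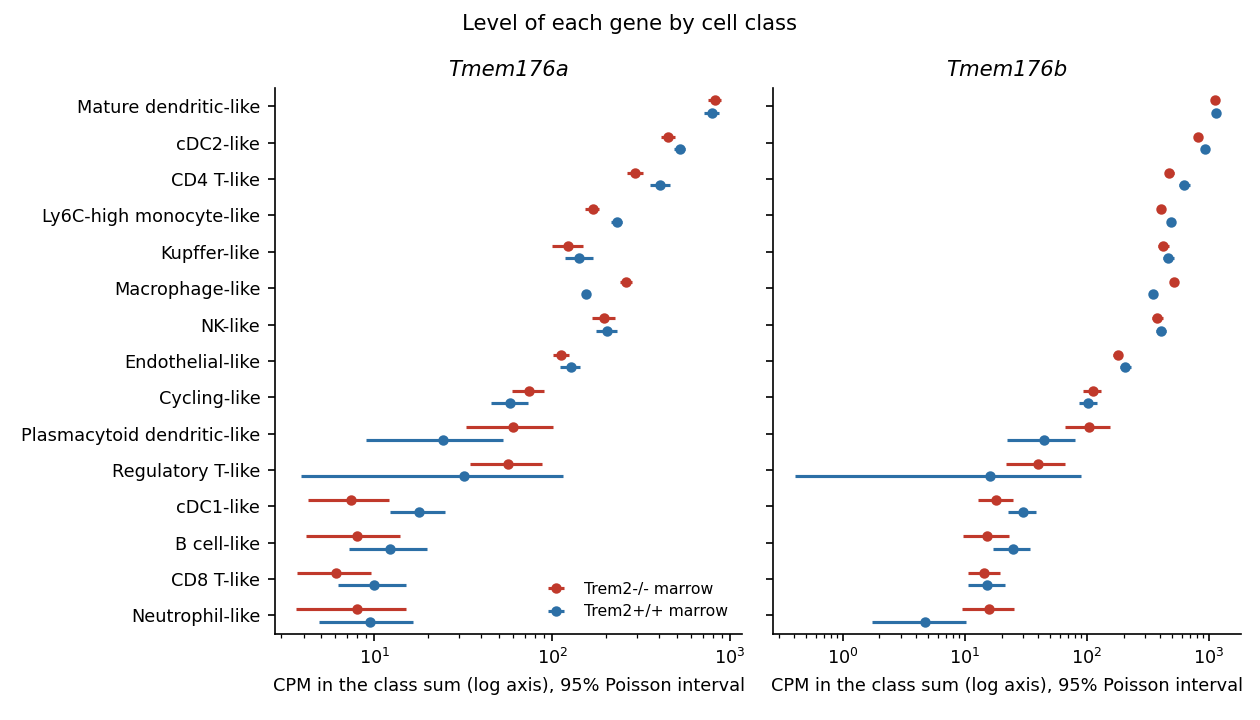
Level of Tmem176a (left) and Tmem176b (right) in each class with at least 20 cells in a library, in CPM on a log axis, with Trem2-/- marrow in red above Trem2+/+ marrow in blue and bars for the 95% Poisson interval. Mature dendritic-like and cDC2-like cells lead in both panels, and cDC1-like, B cell-like, CD8 T-like and neutrophil-like cells stand near the bottom, with regulatory T-like cells of the Trem2+/+ library (24 cells) among them for Tmem176b.

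A pair of small classes under the 20-cell minimum is named here after its values were seen. Stellate or fibroblast-like cells had Tmem176a at 747 CPM (529 to 1026, 13 cells) in the Trem2-/- library, against 1378 CPM (1147 to 1642, 14 cells) in the Trem2+/+ library, the Trem2+/+ value lying above the mature dendritic-like one. Their Tmem176b stood at 1121 CPM (849 to 1453) for Trem2-/- marrow and 1797 CPM (1532 to 2095) for Trem2+/+ marrow. Cholangiocyte-like cells had Tmem176b at 2036 CPM (1812 to 2280, 12 cells) in the Trem2-/- library, against 1908 CPM (1720 to 2111, 19 cells) in the Trem2+/+ library, above the mature dendritic-like level in both libraries. Neither is a leukocyte, and both came through the CD45 sort in small numbers.

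As clustered here, the class that supplied most UMIs was not the one with the highest level. Macrophage-like cells supplied 17.4% of all Tmem176a UMIs and 18.3% of all Tmem176b UMIs in the Trem2-/- library, in which they were 5.42% of kept cells. In the Trem2+/+ library they supplied 26.2% of Tmem176a and 30.1% of Tmem176b UMIs and were 19.0% of kept cells. Mature dendritic-like cells made up 1.51% of Trem2-/- and 1.35% of Trem2+/+ kept cells, and supplied 15.4% (Trem2-/-) and 10.6% (Trem2+/+) of Tmem176a UMIs. B cell-like, CD8 T-like and neutrophil-like cells each supplied under 1% of either gene in both libraries, although they were among the larger classes. Endothelial-like cells supplied 9.92% (Trem2-/-) and 5.28% (Trem2+/+) of Tmem176a UMIs. This order depended on the filters and clustering: macrophage-like cells were the largest source of both genes in both libraries under 2 of 7 alternatives. When cells with under 1000 UMIs were left out and the rest clustered anew, class borders moved. The macrophage-like class then held 91 (Trem2-/-) and 463 (Trem2+/+) cells, against 324 (Trem2-/-) and 1256 (Trem2+/+) before. Kupffer-like cells rose from 229 to 292 (Trem2-/-) and from 231 to 506 (Trem2+/+). The smaller macrophage-like class supplied 2.89% (Trem2-/-) and 7.76% (Trem2+/+) of Tmem176a UMIs. Of Tmem176b UMIs it supplied 3.06% (Trem2-/-) and 8.49% (Trem2+/+). Ly6C-high monocyte-like cells were then the largest source of both genes, with 17.5% (Trem2-/-) and 22.1% (Trem2+/+) of Tmem176a UMIs.

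**Figure D2:**
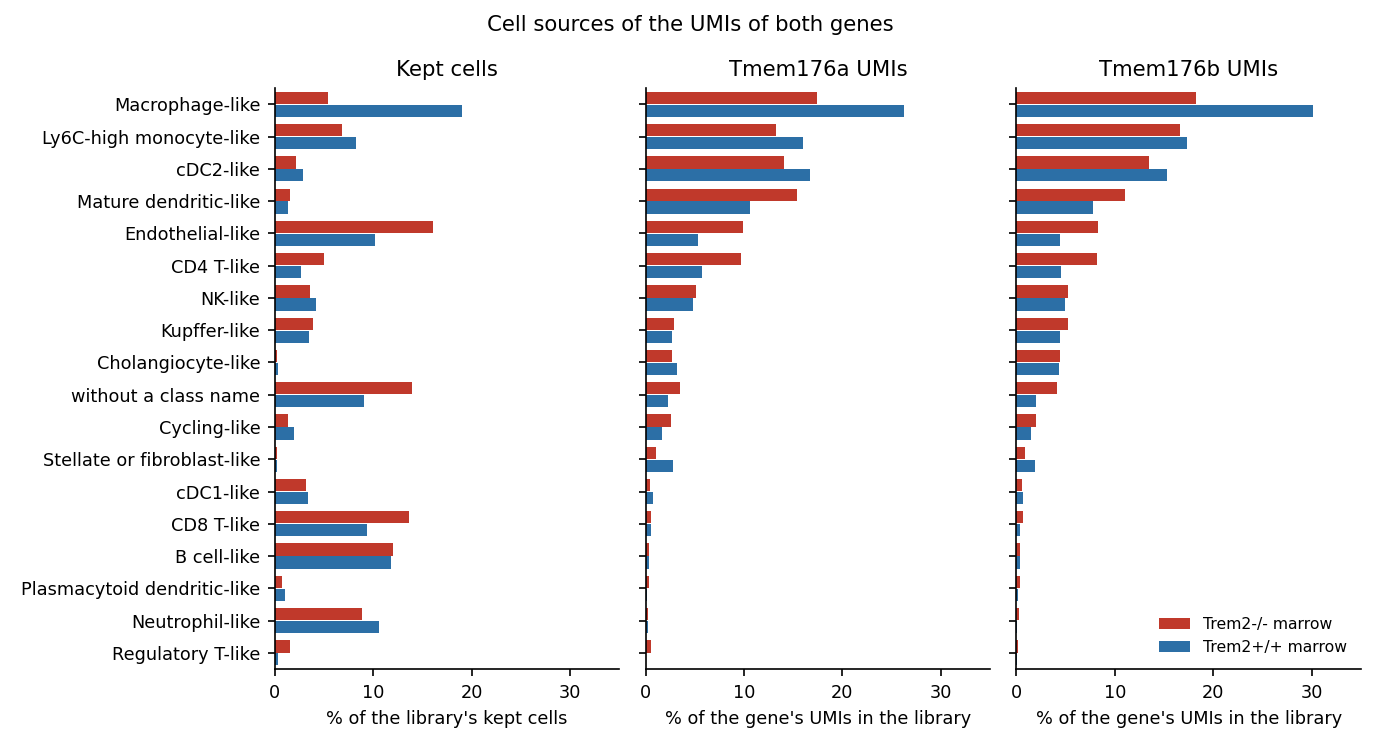
Share of kept cells (left), of Tmem176a UMIs (middle) and of Tmem176b UMIs (right) from each class, in percent of the library, with Trem2-/- marrow in red above Trem2+/+ marrow in blue. As clustered here, macrophage-like cells give the longest bar for both genes in both libraries, an order held under 2 of 7 alternatives, and mature dendritic-like and cDC2-like cells give far longer bars for the genes than for cells.

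The contrast by which the genes had been chosen was in macrophage-like cells, that is, in C1q- and Adgre1-expressing cells apart from Clec4f-high Kupffer-like cells. Tmem176a stood at 260 CPM (240 to 281, 626 UMIs in 324 cells) in the Trem2-/- library against 155 CPM (146 to 164, 1172 UMIs in 1256 cells) in the Trem2+/+ library, which gives a log2 ratio of 0.75 (0.60 to 0.89). Tmem176b stood at 519 CPM (491 to 549, 1251 UMIs) for Trem2-/- marrow and 349 CPM (335 to 362, 2638 UMIs) for Trem2+/+ marrow, which gives a log2 ratio of 0.58 (0.48 to 0.67). The intervals of the libraries did not overlap for either gene. Of the 2 genes, 1 (Tmem176a) was at least 1.5-fold higher and Tmem176b lay just under that size. Among the 1365 genes that averaged 100 CPM or more and had 100 UMIs or more in this class, 1.32% were at least 1.5-fold higher and 1.17% at least 1.5-fold lower, and the median log2 ratio was -0.0061. Among those genes 7 were at least as high in ratio as Tmem176a and 20 at least as high as Tmem176b. Nothing is read from these counts, since this contrast chose the pair.

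The difference was also present in the share of cells. In the Trem2-/- library 49.7% (44.1 to 55.3) of macrophage-like cells had a Tmem176a UMI, against 33.0% (30.4 to 35.7) in the Trem2+/+ library. Median depths were 7064.5 UMIs (Trem2-/-) and 5243.5 UMIs (Trem2+/+). After every cell was thinned to 1000 UMIs, which left out 43 (Trem2-/-) and 278 (Trem2+/+) shallower cells, the share was 17.8% (13.5 to 22.8) for Trem2-/- marrow and 12.5% (10.5 to 14.7) for Trem2+/+ marrow, whose intervals overlap. For Tmem176b the share was 59.9% (54.3 to 65.3) for Trem2-/- marrow and 44.6% (41.8 to 47.4) for Trem2+/+ marrow as deposited. After thinning it was 31.7% (26.3 to 37.5) for Trem2-/- marrow and 24.9% (22.3 to 27.8) for Trem2+/+ marrow, again with overlap. The UMIs were unevenly spread over cells: 50.3% of Trem2-/- and 67.0% of Trem2+/+ macrophage-like cells had no Tmem176a UMI, and the highest cell held 17 (Trem2-/-) or 13 (Trem2+/+).

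The class was made of 3 clusters, which the libraries filled in different proportions. Cluster 23, led by Pf4 and the C1q genes, gave 44.8% of the class's UMIs in the Trem2-/- library against 30.5% in the Trem2+/+ library. Cluster 17, led by Gpnmb and Mmp12, genes of lipid-associated macrophages, gave 51.4% (Trem2-/-) and 64.8% (Trem2+/+). Cluster 28 was shallow, with a median of 702 UMIs, and gave 3.77% (Trem2-/-) and 4.71% (Trem2+/+). Cluster 23 was the higher of the deep clusters for both genes: Tmem176a stood there at 365 CPM (330 to 403) in the Trem2-/- library against 241 CPM (222 to 262) in the Trem2+/+ library. In cluster 17 it stood at 172 CPM (150 to 197) for Trem2-/- marrow and 112 CPM (102 to 121) for Trem2+/+ marrow. Tmem176b stood at 767 CPM (716 to 821) for Trem2-/- marrow and 610 CPM (579 to 643) for Trem2+/+ marrow in cluster 23, and at 308 CPM (278 to 341) for Trem2-/- marrow and 224 CPM (211 to 238) for Trem2+/+ marrow in cluster 17. Within either deep cluster both genes were higher in the Trem2-/- library, with counting intervals that did not overlap. The log2 ratios for Tmem176a were 0.62 in cluster 17 and 0.60 in cluster 23, and for Tmem176b 0.46 in cluster 17 and 0.33 in cluster 23. These cells are parts of the contrast that chose the pair, so the ratios are a description only. With the 3 clusters weighted equally the class ratios were 0.46 for Tmem176a and 0.35 for Tmem176b. In cluster 28 the ratios were 0.13 (-0.68 to 0.88) for Tmem176a and 0.32 (-0.23 to 0.84) for Tmem176b, so no difference was detectable at that depth.

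The ratio also moved with Gpnmb, a lysosomal membrane glycoprotein gene whose own level in the class was 780 CPM in the Trem2-/- library against 1596 CPM in the Trem2+/+ library (log2 ratio -1.03). Among macrophage-like cells with a Gpnmb UMI, Tmem176a stood at 222 CPM (198 to 248, 152 cells) in the Trem2-/- library against 114 CPM (105 to 123, 680 cells) in the Trem2+/+ library, which gives a log2 ratio of 0.97 (0.77 to 1.17). Among those without one it stood at 315 CPM (281 to 352, 172 cells) for Trem2-/- marrow and 253 CPM (232 to 274, 576 cells) for Trem2+/+ marrow, which gives a log2 ratio of 0.32 (0.11 to 0.52). With a Gpnmb UMI, Tmem176b stood at 449 CPM (Trem2-/-) and 267 CPM (Trem2+/+), a ratio of 0.75 (0.61 to 0.89). Without one it stood at 622 CPM (Trem2-/-) and 542 CPM (Trem2+/+), a ratio of 0.20 (0.06 to 0.34). In CPM the gap between libraries was thus smaller in cells without a Gpnmb UMI for both genes. Median depths were 9495 UMIs (Trem2-/-) and 7477.5 UMIs (Trem2+/+) with a Gpnmb UMI, and 4683.5 UMIs (Trem2-/-) and 1851.5 UMIs (Trem2+/+) without one. At 1000 UMIs per cell, Tmem176a was in 11.6% (6.93 to 18.0) of Trem2-/- and 9.24% (7.06 to 11.8) of Trem2+/+ cells with a Gpnmb UMI, and in 24.4% (17.5 to 32.6) of Trem2-/- and 17.7% (14.0 to 22.0) of Trem2+/+ cells without one. Tmem176b was then in 27.4% (20.3 to 35.4) of Trem2-/- and 19.8% (16.7 to 23.2) of Trem2+/+ cells with a Gpnmb UMI. Without one it was in 36.3% (28.2 to 45.0) of Trem2-/- and 33.3% (28.6 to 38.4) of Trem2+/+ cells. At that depth the gap was thus larger without a Gpnmb UMI for Tmem176a and smaller for Tmem176b. The intervals of the libraries overlapped on either side of the split for both genes, and whether the gaps differed was not tested. Gpnmb lies on the same chromosome, at chr6:49036546-49070929, as 1 of the 16 genes nearest to the pair in the count tables (8 on each side). It was the only one of those 16 to average 20 CPM or more in macrophage-like cells, and its direction was opposite to that of the pair.

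Markers of some other classes also differed between the libraries in macrophage-like cells. The 9 markers of mature dendritic cells summed to 529 CPM in Trem2-/- and 261 CPM in Trem2+/+ macrophage-like cells. All 9 were higher in the Trem2-/- library. Of these markers, Fscn1 was at 3.74 CPM (Trem2-/-) and 3.70 CPM (Trem2+/+) in macrophage-like cells. The 8 markers of CD8 T cells summed to 489 CPM (Trem2-/-) and 199 CPM (Trem2+/+), all 8 higher in the Trem2-/- library. Among them Cd3e stood at 13.7 CPM (Trem2-/-) and 5.81 CPM (Trem2+/+). Ccl5 is in both lists, so these sums are not separate. Of other lists, 6 of 7 Kupffer and 7 of 9 Ly6C-low monocyte markers were higher in the Trem2-/- library. The same held for 3 of 9 neutrophil and 4 of 9 endothelial markers. Without the macrophage-like cells that held a Fscn1, Ccr7 or Cd3e UMI, a choice made after the data were seen, the log2 ratios were 0.69 for Tmem176a and 0.53 for Tmem176b.

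As clustered here, macrophage-like cells were the only class of those with at least 100 cells in each library in which both ratios lay above 0. In neutrophil-like cells the Tmem176b ratio was 1.74 (0.35 to 3.36), on 18 (Trem2-/-) and 6 (Trem2+/+) UMIs, and that of Tmem176a was -0.26 (-1.68 to 1.11). In Ly6C-high monocyte-like cells, blood-derived cells from which liver macrophages can arise, Tmem176a stood at 168 CPM (154 to 184) in the Trem2-/- library against 230 CPM (214 to 248) in the Trem2+/+ library, which gives a log2 ratio of -0.45 (-0.62 to -0.28). Tmem176b stood there at 405 CPM (Trem2-/-) and 489 CPM (Trem2+/+), a ratio of -0.27 (-0.38 to -0.16). Neither was past 1.5-fold, as were 0.284% of 1407 genes on the lower side. In Kupffer-like cells, the resident liver macrophages, the ratios were -0.22 (-0.61 to 0.18) for Tmem176a and -0.14 (-0.35 to 0.07) for Tmem176b, within counting error and short of 1.5-fold, which 2.48% of 1454 genes reached on the lower side. Under other filters and clustering settings the Kupffer-like ratios lay above 0 in 6 of 7 cases for either gene, from -0.10 to 0.33 for Tmem176a and from -0.05 to 0.19 for Tmem176b. When macrophage-like, Kupffer-like and Ly6C-high monocyte-like cells were pooled, an alternative chosen after the data were seen, the ratios were 0.19 (0.08 to 0.29) for Tmem176a and 0.20 (0.13 to 0.27) for Tmem176b. The pooled ratios were thus smaller than those of the macrophage-like class, though still above 0.

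**Figure D3:**
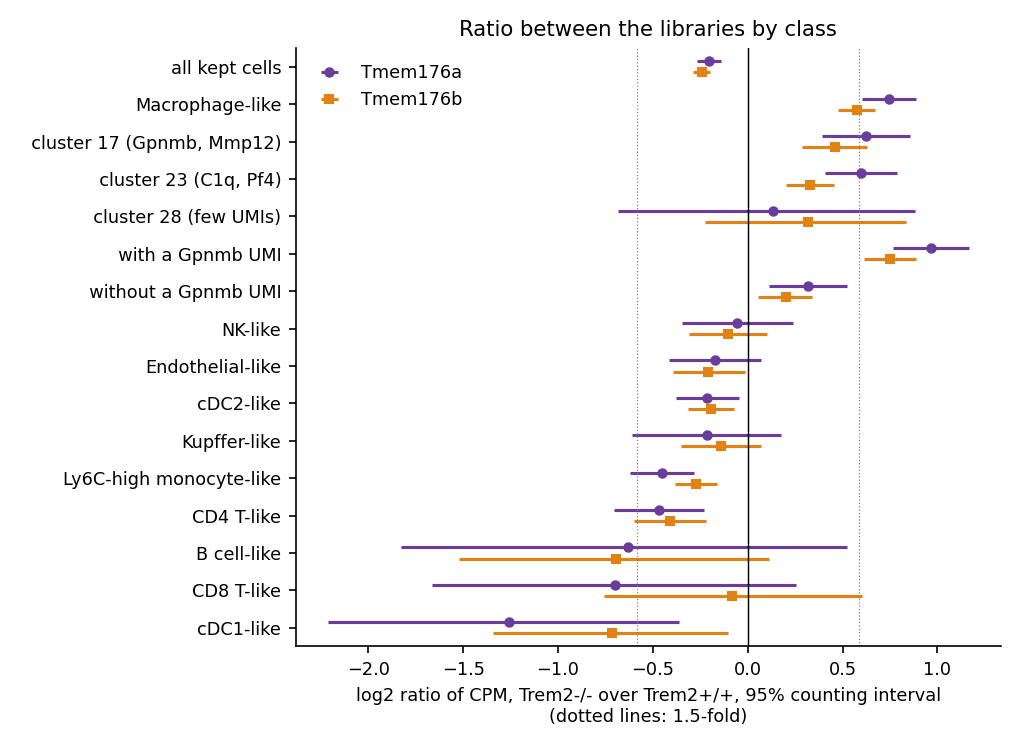
Log2 ratio of CPM, Trem2-/- over Trem2+/+ marrow, for Tmem176a (purple circles) and Tmem176b (orange squares) over all kept cells, in each class with at least 100 cells in each library other than neutrophil-like cells, and in subsets of the macrophage-like class, with bars for the 95% counting interval. The points of macrophage-like cells and their subsets lie to the right of 0, cluster 28 with intervals across it, whereas the other classes shown lie to its left or across it. Neutrophil-like cells, not shown, had ratios of -0.26 (-1.68 to 1.11) for Tmem176a and 1.74 (0.35 to 3.36) for Tmem176b.

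Leaving out classes of under 100 cells, the lymphoid and dendritic classes and endothelial-like cells were lower in the Trem2-/- library or did not differ beyond counting error. Among smaller classes of at least 20 cells, plasmacytoid dendritic-like cells (42 Trem2-/- and 67 Trem2+/+ cells) had ratios of 1.30 (-0.17 to 2.97) for Tmem176a and 1.20 (0.12 to 2.38) for Tmem176b. Only 9 (Trem2-/-) and 6 (Trem2+/+) of them had a Tmem176b UMI. Regulatory T-like ratios were 0.83 (-1.21 to 3.97) for Tmem176a and 1.31 (-1.40 to 6.72) for Tmem176b. Cycling-like ratios were 0.34 (-0.12 to 0.81) for Tmem176a and 0.12 (-0.24 to 0.48) for Tmem176b. Mature dendritic-like ratios were 0.06 (-0.12 to 0.24) for Tmem176a and -0.02 (-0.17 to 0.13) for Tmem176b. In CD4 T-like cells Tmem176a stood at 293 CPM (263 to 325) in the Trem2-/- library against 405 CPM (357 to 458) in the Trem2+/+ library, which gives a log2 ratio of -0.47 (-0.71 to -0.23). Tmem176b stood at 472 CPM (Trem2-/-) and 628 CPM (Trem2+/+), a ratio of -0.41 (-0.60 to -0.22). In cDC2-like cells the ratios were -0.21 (-0.38 to -0.05) for Tmem176a and -0.19 (-0.32 to -0.07) for Tmem176b. In NK-like cells they were -0.05 (-0.35 to 0.24) for Tmem176a and -0.10 (-0.31 to 0.10) for Tmem176b. In endothelial-like cells they were -0.18 (-0.42 to 0.07) for Tmem176a and -0.21 (-0.40 to -0.02) for Tmem176b. None of the 8 ratios of CD4 T-, cDC2-, NK- and endothelial-like cells reached 1.5-fold. On the lower side 1.36% of genes reached that size in CD4 T-like cells, 0.853% in cDC2-like, 0.202% in NK-like and 0.309% in endothelial-like cells. Past 1.5-fold lower were cDC1-like (-1.26 for Tmem176a and -0.72 for Tmem176b) and B cell-like cells (-0.63 for Tmem176a and -0.69 for Tmem176b). CD8 T-like cells were past it for Tmem176a (-0.70) and not for Tmem176b (-0.08). The B cell-like and CD8 T-like intervals included 0. Both genes lay under the 100 CPM minimum in cDC1-, B cell- and CD8 T-like cells, so no share of genes is given there. Under other filters and clustering settings the CD4 T-like Tmem176a ratio was past 1.5-fold lower in 4 of 7 cases, down to -0.67, and that of Tmem176b in 1 (-0.66), while Leiden resolution 2 gave 0.12 for Tmem176a and 0.15 for Tmem176b. Endothelial-like ratios were -0.65 for both genes under stricter filters, and the NK-like Tmem176a ratio was -1.68 (-4.93 to 0.59) at resolution 2. Over all kept cells Tmem176a stood at 145 CPM (Trem2-/-) and 166 CPM (Trem2+/+), a ratio of -0.20 (-0.27 to -0.14). Tmem176b stood there at 276 CPM (Trem2-/-) and 326 CPM (Trem2+/+), a ratio of -0.24 (-0.29 to -0.20). Both were short of 1.5-fold, which 3.63% of 1434 genes reached on the lower side. The macrophage-like difference was thus not seen in the sum of all cells, in which the classes also differ in number.

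CD4 T-like cells stood far above CD8 T-like cells, in which Tmem176a was at 6.10 CPM (Trem2-/-) and 9.91 CPM (Trem2+/+). A gate on gamma-delta T cells (a Trdc UMI with a Cd3 chain UMI, over all kept cells) held 81 Trem2-/- and 36 Trem2+/+ cells. In it Tmem176b stood at 48.0 CPM (Trem2-/-) and 161 CPM (Trem2+/+). These levels came from 16 UMIs in 7 cells (Trem2-/-) and 26 UMIs in 4 cells (Trem2+/+). The share of cells with a Tmem176b UMI was 8.64% (Trem2-/-) and 11.1% (Trem2+/+), with overlapping intervals. With so few positive cells, no difference between libraries is read from these levels.

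NK-like cells were mixed, in a split chosen after the values were seen. In cells with a UMI of Eomes, the transcription factor gene of conventional NK cells, Tmem176a stood at 10.2 CPM (2.10 to 29.7, 72 cells) for Trem2-/- marrow and 15.2 CPM (4.93 to 35.4, 85 cells) for Trem2+/+ marrow. In NK-like cells without one it stood at 278 CPM (239 to 322, 142 cells) for Trem2-/- marrow and 286 CPM (249 to 327, 189 cells) for Trem2+/+ marrow. Tmem176b stood at 30.5 CPM (Trem2-/-) and 48.6 CPM (Trem2+/+) with an Eomes UMI, and at 534 CPM (Trem2-/-) and 564 CPM (Trem2+/+) without one. The Eomes-positive cells were thus far below the rest, beyond counting error. Median depths were 3477.5 UMIs (Trem2-/-) and 3309 UMIs (Trem2+/+) with an Eomes UMI, and 4320.5 UMIs (Trem2-/-) and 3545 UMIs (Trem2+/+) without one.

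**Figure D4:**
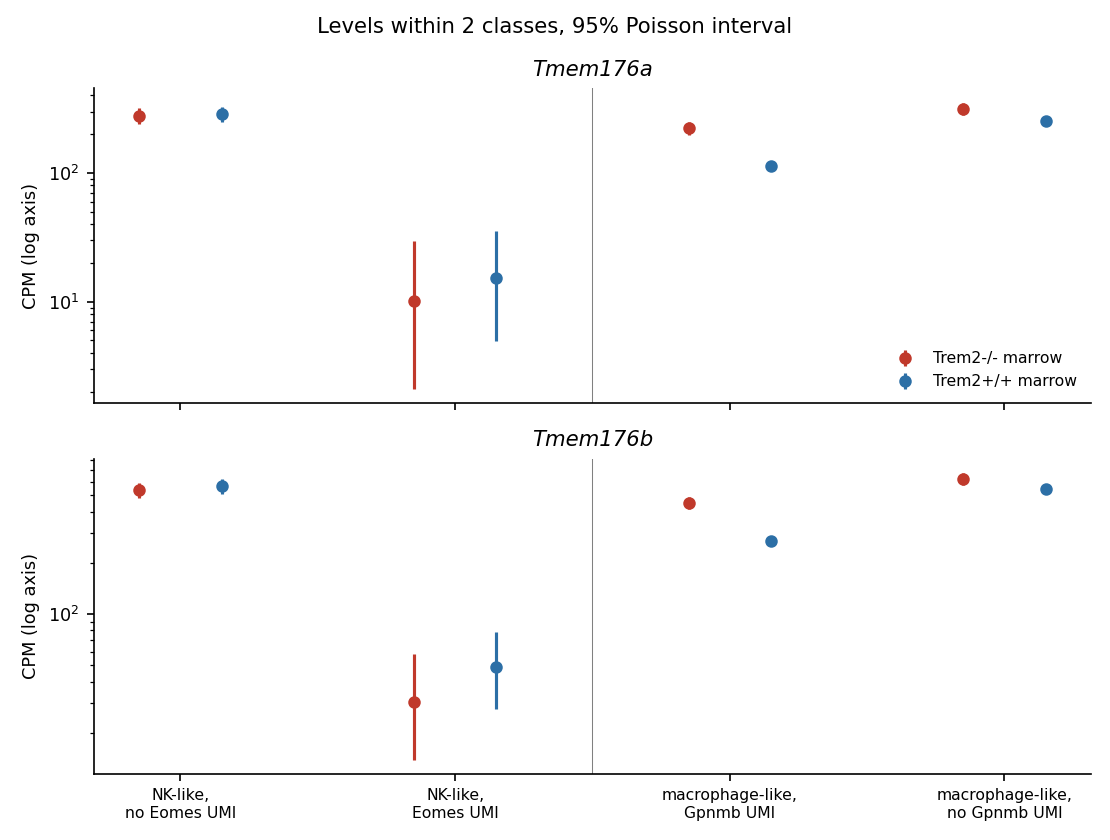
Tmem176a (top) and Tmem176b (bottom) in CPM on a log axis within NK-like cells without or with an Eomes UMI, and macrophage-like cells with or without a Gpnmb UMI, with Trem2-/- marrow in red left of Trem2+/+ marrow in blue and bars for the 95% Poisson interval. The split within NK-like cells is the wider of the pair, and the gap in CPM between libraries is widest in macrophage-like cells with a Gpnmb UMI.

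As deposited, Tmem176a was detected in a larger share of cells with a Tmem176b UMI than of cells without one in macrophage-, Kupffer-, Ly6C-high monocyte-, cDC2-, mature dendritic-, CD4 T-, NK- and endothelial-like cells of both libraries. Of macrophage-like cells with a Tmem176b UMI, 74.7% (68.0 to 80.7) of Trem2-/- and 60.0% (55.8 to 64.1) of Trem2+/+ cells also had a Tmem176a UMI. Of those without a Tmem176b UMI, 12.3% (7.20 to 19.2) of Trem2-/- and 11.4% (9.09 to 13.9) of Trem2+/+ cells had one. NK-like cells with Tmem176b had Tmem176a in 66.7% (Trem2-/-) and 73.0% (Trem2+/+), and those without in 1.69% (Trem2-/-) and 4.91% (Trem2+/+). Mature dendritic-like cells with Tmem176b had it in 89.0% (Trem2-/-) and 97.0% (Trem2+/+), and those without in 23.5% (Trem2-/-) and 27.3% (Trem2+/+). Deeper cells have more of every gene, and the part of depth in this contrast was not tested. At 1000 UMIs per cell the contrast was smaller, but thinning itself lowers detection of both genes, so this does not show the part of depth. Macrophage-like cells with Tmem176b then had Tmem176a in 31.5% (22.0 to 42.2) of Trem2-/- and 23.8% (18.6 to 29.6) of Trem2+/+ cells, and those without in 11.5% (7.32 to 16.8) of Trem2-/- and 8.72% (6.78 to 11.0) of Trem2+/+ cells. In Trem2-/- endothelial-like cells the contrast was not seen at that depth: Tmem176a was in 10.5% (5.70 to 17.3) of cells with Tmem176b and 10.9% (8.59 to 13.6) of those without. In Trem2+/+ endothelial-like cells Tmem176a was in 16.3% (8.95 to 26.2) with and 10.1% (7.36 to 13.4) without, with overlapping intervals. The intervals with and without Tmem176b also overlapped at that depth in Kupffer-like cells of both libraries, with 14.3% and 5.56% (Trem2-/-) and 14.0% and 6.45% (Trem2+/+). They overlapped too in Trem2-/- cDC2-like cells (36.4% with and 24.1% without) and in Trem2+/+ mature dendritic-like cells (66.0% with and 36.1% without). In these Kupffer-, cDC2- and mature dendritic-like cells, and in Trem2+/+ endothelial-like cells, the share was still higher with Tmem176b. Overlap of intervals does not show that a difference was absent, and the difference was not tested. Shared reads at the overlapping 5′ ends would also place both genes in a cell, and their part was not tested.

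**Figure D5:**
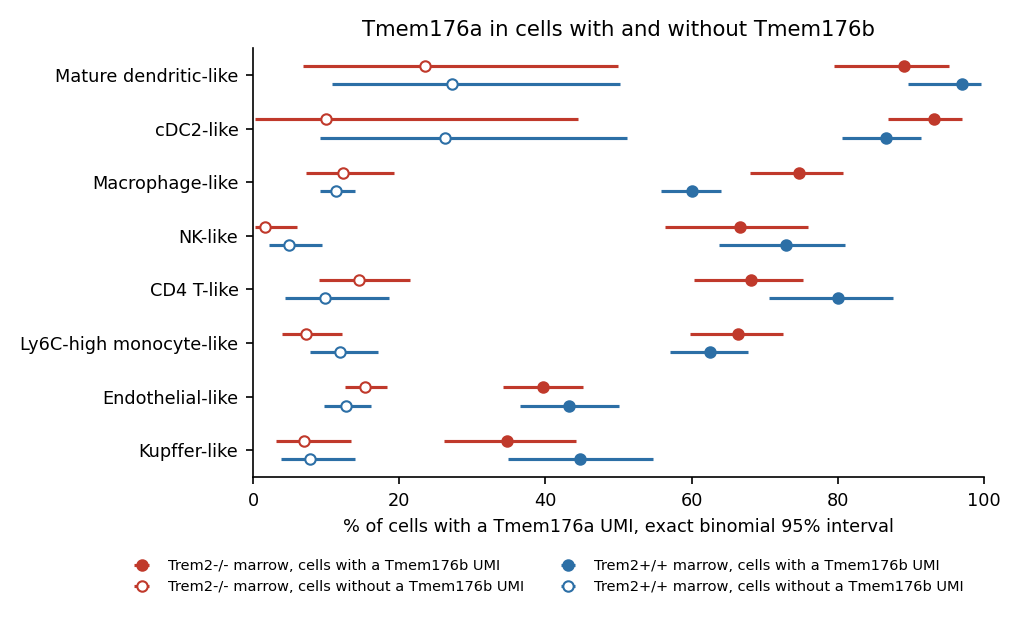
Share of cells with a Tmem176a UMI among cells with (filled) and without (open) a Tmem176b UMI, in percent with the exact binomial 95% interval, for 8 classes, with Trem2-/- marrow in red above Trem2+/+ marrow in blue. Filled points lie to the right of open points in each of the 8 classes, with the narrowest gaps in endothelial-like and Kupffer-like cells.

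The balance within the pair differed between classes more than between libraries. Over all kept cells Tmem176a made up 34.4% (33.5 to 35.3) of the pair's UMIs for Trem2-/- marrow and 33.8% (33.0 to 34.6) for Trem2+/+ marrow. It made up 42.3% (39.6 to 45.1) in Trem2-/- and 41.0% (38.1 to 43.9) in Trem2+/+ mature dendritic-like cells, and 22.5% (18.8 to 26.6) in Trem2-/- and 23.4% (19.8 to 27.4) in Trem2+/+ Kupffer-like cells. The intervals of these classes did not overlap. In macrophage-like cells it was 33.4% (31.2 to 35.5) for Trem2-/- marrow and 30.8% (29.3 to 32.2) for Trem2+/+ marrow. These are shares of UMIs, 1 per molecule, and not of lengths.

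Over 30 class sums (15 classes in each library), log2(CPM + 1) of Tmem176a and Tmem176b had a Pearson correlation of 0.97. Of 10526 other genes compared with the sum of the pair, the most alike reached 0.71 (St6galnac6), 0.70 (Myl12a) and 0.70 (Ilk), followed by Sulf2, Dok1, Adgrg6, Hax1, Mrpl14, Itgb1 and Gnb1, the last at 0.67. No gene compared exceeded 0.71. The class sums of a library share its depth and any free RNA, and classes are not independent points. With rank correlation 4 of these 10 genes were again among the 10 most alike.

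Genes tied to the pair by function were read in macrophage-like cells among members that averaged 20 CPM or more. Of all 5470 genes past that minimum, 106 (1.94%) were at least 1.5-fold higher and 69 (1.26%) at least 1.5-fold lower, with a median log2 ratio of -0.0033. In the same cells the mature dendritic markers summed to 529 CPM (Trem2-/-) and 261 CPM (Trem2+/+), and cluster 23 gave 44.8% (Trem2-/-) and 30.5% (Trem2+/+) of UMIs. Their part in the values of the MHC class II and other lists below was not tested. Of 13 inflammasome and interleukin-1 genes over the minimum (15 listed), 4 were at least 1.5-fold higher and 0 lower, with a median of 0.36. Il1a, which encodes interleukin-1 alpha, stood highest at 98.0 CPM in the Trem2-/- library against 50.5 CPM in the Trem2+/+ library (0.96), followed by Casp4, the non-canonical inflammasome caspase, at 27.4 CPM (Trem2-/-) and 16.4 CPM (Trem2+/+), a ratio of 0.74. The lowest were Pycard, the inflammasome adaptor, at 155 CPM (Trem2-/-) and 179 CPM (Trem2+/+), a ratio of -0.21, and P2rx7, the ATP-gated channel, at 36.5 CPM (Trem2-/-) and 41.8 CPM (Trem2+/+), a ratio of -0.19. Nlrp3, the sensor that TMEM176B is described to restrain, stood at 120 CPM (Trem2-/-) and 75.4 CPM (Trem2+/+), a ratio of 0.67 (0.46 to 0.88). The sensor gene was thus on the same side of 0 as the pair.

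Of 12 MHC class II genes over the minimum (17 listed), 2 were at least 1.5-fold higher and 0 lower, with a median of 0.45. H2-Eb1, a class II chain, stood at 5293 CPM in the Trem2-/- library against 3432 CPM in the Trem2+/+ library (0.62) and Ciita, the class II transactivator, at 62.7 CPM (Trem2-/-) and 41.5 CPM (Trem2+/+), a ratio of 0.60. The lowest were the lysosomal proteases Ctss, at 4399 CPM (Trem2-/-) and 4697 CPM (Trem2+/+), a ratio of -0.09, and Lgmn, at 990 CPM (Trem2-/-) and 1006 CPM (Trem2+/+), a ratio of -0.02. Of 6 CD20-like Ms4a genes over the minimum (14 listed) none reached 1.5-fold in either direction and all 6 lay above 0, with a median of 0.26, from Ms4a7 (0.44) and Ms4a6d (0.30) to Ms4a4c (0.25) and Ms4a4a (0.01). A separate list of 16 genes, drawn up as neighbours of the pair and holding Gimap GTPase genes but not Gpnmb, had no member over the minimum. Only some of them are among the 16 genes nearest to the pair in the annotation. These lists were chosen with earlier results of the same libraries known, so their direction is a description.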

How the data were processed

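The authors deposited raw UMI counts per gene and barcode as 10x matrices. The file headers name Cell Ranger 5.0.1, and the submitters' processing notes name mm10. The sources used here state neither the counting strand nor the annotation release. Barcodes with 200 or more detected genes and no more than 10% mitochondrial UMIs were kept. Scrublet marked 5 Trem2-/- and 2 Trem2+/+ barcodes as doublets (0.0786% and 0.0285%), so doublet calling had not worked and kept cells may hold doublets.

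Clustering used scanpy 1.11.5 (2000 variable genes, 30 components, 15 neighbours, Leiden resolution 1). Clusters were named from marker lists. Those with competing or missing markers stayed unnamed (832 Trem2-/- and 595 Trem2+/+ cells). For each class of each library, a gene's summed UMIs were expressed as counts per class total (CPM). Levels have exact Poisson intervals, ratios exact conditional binomial intervals and shares exact binomial (Clopper-Pearson) intervals. Classes needed 20 cells for a level and 100 in each library for a ratio, except where ratios of smaller classes are named as such. With 1 library per group, no test between groups was made. The interval and ratio code was tested on simulated data.

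Named genes besides the pair were the 10 most alike genes and the 2 highest and 2 lowest members of each list; Nlrp3 was named after its values were seen, for its described link to TMEM176B. The members, lists and markers were chosen with earlier results of these data known. Alternatives covered cell filters, clustering, scaling (edgeR 4.0.16 for TMM), a marker gate and strata. A gene list, a gate and a motif are not reported here.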

Additional observations from a re-analysis of the deposited data

Results flagged for a closer look

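Tmem176a and Tmem176b lay above 0 in macrophage-like cells (log2 ratio, Trem2-/- over Trem2+/+, of 0.75 and 0.58) and below 0, with the whole counting interval, in several other classes. For Tmem176a these were Ly6C-high monocyte-like (-0.45), cDC1-like (-1.26), cDC2-like (-0.21) and CD4 T-like cells (-0.47). For Tmem176b they were Ly6C-high monocyte-like (-0.27), cDC1-like (-0.72), cDC2-like (-0.19), CD4 T-like (-0.41) and endothelial-like cells (-0.21). The difference between classes was not tested, because each group is 1 library. In cDC1-like cells the ratios rest on 16 (Trem2-/-) and 34 (Trem2+/+) Tmem176a UMIs and on 39 (Trem2-/-) and 57 (Trem2+/+) Tmem176b UMIs, at levels close to those of B cell-like cells.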

How the results depend on the processing

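The contrast in macrophage-like cells chose the pair, and its alternatives reuse cells of the same libraries, so their common sign is a description only. In macrophage-like cells both ratios lay above 0 under each of the 19 alternatives that gave a value, from 0.13 to 0.97 for Tmem176a (0.75 as reported) and from 0.20 to 0.75 for Tmem176b (0.58). Those outside the reported interval were, for Tmem176a, cells with at least 1000 UMIs (0.59), equal cluster weights (0.46), cells with (0.97) and without (0.32) a Gpnmb UMI, clusters 23 (0.60) and 28 (0.13) alone, and the pool with Kupffer- and Ly6C-high monocyte-like cells (0.19). For Tmem176b they were all deposited barcodes (0.72), stricter filters (0.68), Leiden resolution 2 (0.70), equal cluster weights (0.35), cells with (0.75) and without (0.20) a Gpnmb UMI, clusters 17 (0.46), 23 (0.33) and 28 (0.32) alone, and the same pool (0.20). Single clusters, the pool, the removal of shared barcodes and that of cells with a Fscn1, Ccr7 or Cd3e UMI were chosen after seeing the data. Leiden resolution 0.5 left no macrophage-like cluster and so no value. At that resolution Ly6C-high monocyte-like ratios turned to 0.12 for Tmem176a and 0.20 for Tmem176b, in a class that had grown to 566 Trem2-/- and 1143 Trem2+/+ cells. CD4 T-like ratios turned to 0.12 and 0.15 at resolution 2. The neutrophil-like Tmem176b ratio turned from 1.74 (0.35 to 3.36) to -1.07 when clustered without the MHC class II, lipid-associated and inflammasome lists. The cause was not tested. TMM and median-ratio size factors shifted the macrophage-like ratios by -0.03 and -0.04. The 406 other values under alternatives were ratios outside the macrophage-like class, source shares, detection shares and the overlap of the most alike genes. Of these, 226 stayed within their reported intervals, 175 moved, and the 5 just named changed the sign of a ratio whose interval had excluded 0. Thinning lowers detection shares and class borders shift source shares, so the 175 are no measure of how stable the ratios are. Counted at any size, 31 of 146 ratios outside macrophage-like cells changed sign, among them 6 Kupffer-like Tmem176a and 6 Kupffer-like Tmem176b ratios. No paired analysis was possible because each group is 1 library. Depth limits classes with few UMIs of either gene, and kept cells may hold doublets.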
